A study of Mus musculus with 9 samples.

Results

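Uba6, Rbm34, Bst2, Plek, Nptx2 and Pls3 are 6 genes, of 22526 in the deposited table, whose mRNA in mouse oocytes differed between a group given nicotinamide mononucleotide (NMN) and an aged group. They were chosen by these measured values, because the NMN libraries differed from the aged ones, mostly opposite to the difference between aged and young libraries. All comparisons among the 3 groups share libraries with that choice, so the values of the 6 genes are given as a description, with no p-value. The rule sets no threshold. The 9 libraries were made from oocytes of ICR mice, an outbred strain, at metaphase II, the stage at which the ovulated egg waits for fertilisation. There were 3 libraries from the NMN-supplemented group, 3 from the aged group and 3 from the young group. The labels give neither the ages in weeks, nor the age of the mice that received NMN, nor its dose, nor the number of oocytes and animals behind a library. Any spread between libraries may therefore be technical.

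A fully grown oocyte hardly transcribes its genes, so its mRNA level reflects what was stored during growth and what has since been degraded. NMN is a precursor of NAD, a coenzyme of metabolism. The 6 genes belong to unrelated pathways. Uba6 encodes an enzyme that activates ubiquitin and the ubiquitin-like protein FAT10. Rbm34 encodes an RNA-binding protein of the nucleolus whose yeast relative acts in the maturation of ribosomal RNA. Bst2, also called tetherin, is an interferon-induced membrane protein that holds budding enveloped viruses on the cell surface. Plek encodes pleckstrin, the main protein kinase C substrate of platelets. Nptx2 encodes a secreted pentraxin that gathers AMPA-type glutamate receptors at synapses, and Pls3 encodes plastin 3, which bundles actin filaments.

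Promoter sequence was held for 4 of the 6 genes in RefSeq's promoter table (GRCm38.p6), and it is shown so that the letters before each start can be read beside the expression values. Each line gives the 250 bases before the annotated start, 5′ to 3′ on the gene's strand, with motif matches in capitals. Uba6 and Nptx2 are named only. The Bst2 promoter lies at chr8:71537473-71537722, that of Rbm34 at chr8:126971050-126971299, that of Plek at chr11:17008719-17008968 and the first of 3 for Pls3 at chrX:75875183-75875432, all on the minus strand.
Bst2: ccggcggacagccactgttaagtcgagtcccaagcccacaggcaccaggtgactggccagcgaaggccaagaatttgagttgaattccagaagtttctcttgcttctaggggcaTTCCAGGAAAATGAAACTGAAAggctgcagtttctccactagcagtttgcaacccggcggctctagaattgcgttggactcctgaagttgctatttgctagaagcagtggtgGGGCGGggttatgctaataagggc
Rbm34: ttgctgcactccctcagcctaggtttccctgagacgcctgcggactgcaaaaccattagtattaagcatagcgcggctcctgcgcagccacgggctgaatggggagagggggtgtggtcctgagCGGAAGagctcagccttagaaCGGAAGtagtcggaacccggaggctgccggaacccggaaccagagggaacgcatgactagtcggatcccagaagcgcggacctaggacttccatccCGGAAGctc
Plek: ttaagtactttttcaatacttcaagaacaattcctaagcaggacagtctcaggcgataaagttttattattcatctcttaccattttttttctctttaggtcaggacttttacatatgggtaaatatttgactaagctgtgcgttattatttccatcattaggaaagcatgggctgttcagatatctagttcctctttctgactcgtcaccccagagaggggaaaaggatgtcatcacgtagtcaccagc
Pls3: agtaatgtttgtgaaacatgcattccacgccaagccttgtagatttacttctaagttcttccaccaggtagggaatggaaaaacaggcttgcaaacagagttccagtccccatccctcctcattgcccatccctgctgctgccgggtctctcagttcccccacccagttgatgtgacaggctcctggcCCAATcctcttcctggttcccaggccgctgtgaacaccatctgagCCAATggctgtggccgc

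The capitals mark matches to 8 motifs searched on both strands. In Bst2, the interferon response element (GAAA, any 2 bases, GAAA) matched at 130 and at 124 bases before the start, and these matches overlap each other. A GAS element, TTCNNNGAA, began at 136 bases before the start and overlaps the first of them, and a GC box, GGGCGG, began at 24. Of all 32851 promoter windows of the same length, 2.98% held the interferon response element, 7.02% the GAS element and 32.7% the GC box. Rbm34 held the ETS element CGGAAG at 126, 105 and 9 bases before its start, a motif found in 13.6% of windows. Pls3 held CCAAT at 62 and at 17 bases before its start, found in 33.8% of windows. This is the first of the 3 Pls3 starts in the table. The window of the second largely overlaps it and also held a GC box, and the window of the third, 41.6% G and C, held no match. No match lay in the Plek window, and TATAAA (12.4% of windows), CACGTG (6.02%) and TGACGTCA (1.55%) matched in none of the 4 printed. The Plek window held 38.0% G and C, against 52.4% in Bst2, 54.0% in Pls3 and 60.4% in Rbm34, and the median of all windows was 52.4%. A match describes the letters and is not evidence of binding.

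The libraries held 16.28 to 19.25 M reads (M, mega), as estimated from the steps between low values. Levels are FPKM, fragments per kilobase of transcript and M fragments. Aged replicate 2 stood apart from the other 8 libraries on the first principal component, at -56.98 against -22.66 to 28.53. The 16 oocyte markers, all in the table, summed to 12480 to 19230 FPKM, with 14950 to 18900 in NMN, 16940 to 19230 in aged and 12480 to 16420 in young libraries. Of 14 markers of cumulus and granulosa cells, the somatic cells around the oocyte, 11 were in the table and 6 reached 1 FPKM in any library. They summed to 21.6 FPKM in aged replicate 2 and to 3.41 to 6.91 FPKM in the other 8, where most of it was Cyp19a1 and the defining markers Ptx3, Inha, Fst and Tnfaip6 were listed at 0. Leukocytes express Plek and Bst2, so markers of blood cells were summed too. Of 13 leukocyte markers 7 were in the table, and they summed to 1.13 to 1.37 FPKM in NMN, 1.22 to 1.77 in aged and 1.17 to 1.41 in young libraries. Most of that was Laptm5, while Ptprc, the pan-leukocyte marker, was at 0.033 FPKM or below. Of 10 platelet and red cell markers 3 were in the table, and they summed to 0 to 0.106 FPKM in NMN, 0.125 to 0.426 in aged and 0.0648 to 0.183 in young libraries. Like Plek, this sum was higher in every aged than in every NMN library, although its 3 genes (Ppbp, Itga2b and Alas2) were each at 0.426 FPKM or below. In exact two-sided permutation tests, the smallest p that 3 against 3 libraries allow is 0.1, and it was reached by the platelet and red cell sum in NMN against aged, the oocyte sum in aged against young and the cumulus and granulosa sum in NMN against young. The other tests of the 4 sums gave p from 0.2 to 1. The part of these markers in the results that follow was not tested.

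**Figure D1:**
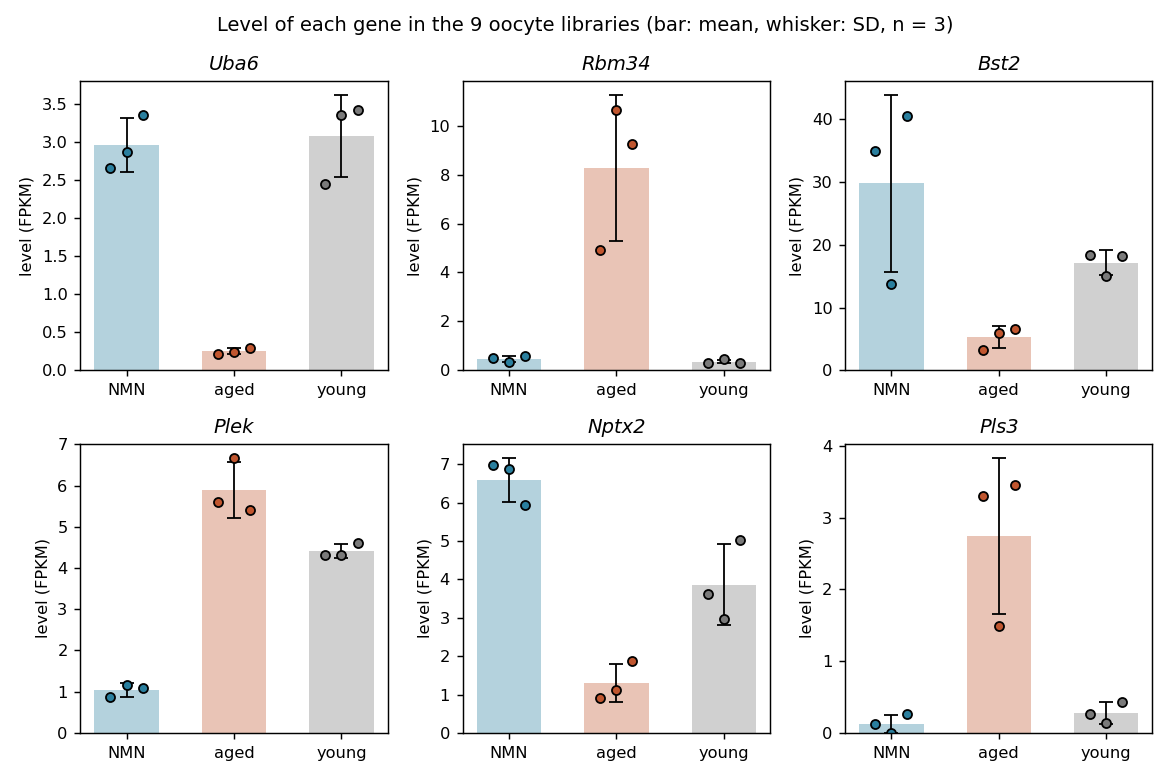
Level in FPKM (vertical axes, linear from 0, each with its own scale) of the 6 genes in NMN, aged and young libraries; points are libraries, bars are means and whiskers are SD (n = 3). The aged libraries lie apart from the 6 others in every panel, below them for Uba6, Bst2 and Nptx2 and above them for Rbm34, Plek and Pls3, and Plek has the largest ratio between its NMN and young means (4.24 times lower in NMN).

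In aged oocytes, 3 of the 6 genes, Uba6, Bst2 and Nptx2, had lower FPKM than in every NMN and every young library. The other 3, Rbm34, Plek and Pls3, had higher FPKM. Among all 9168 tested genes, the aged libraries lay all below the 6 others for 4.43% and all above them for 3.76%. In bulk libraries such as these, less RNA per oocyte and fewer oocytes with the RNA cannot be told apart. The cDNA was primed with oligo(dT), so the values cover RNA captured by its poly(A) tail, and tail length was not measured. The separation was of very unequal size. A difference of at least 4-fold in mean from both other groups was reached by Uba6 on the low side, where 18 tested genes (0.196%) did so, and by Rbm34 and Pls3 on the high side, where 16 genes (0.175%) did so. All 6 genes passed the filter of 1 FPKM in at least 3 libraries. Rbm34 and Pls3 passed it only through the 3 aged libraries and Uba6 only through the 6 others, so these had to differ.

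Uba6 (ENSMUSG00000035898), the ubiquitin- and FAT10-activating enzyme, was lowest in aged oocytes. It was at 2.66, 2.87 and 3.36 FPKM in NMN replicates 1 to 3, at 0.212, 0.241 and 0.294 FPKM in aged replicates 1 to 3, and at 2.46, 3.36 and 3.42 FPKM in young replicates 1 to 3. The aged libraries did not overlap either other group, and the NMN and young libraries overlapped each other. Means were 2.96 ± 0.36 FPKM in NMN, 0.249 ± 0.042 in aged and 3.08 ± 0.54 in young libraries (SD, n = 3), so the NMN mean was 11.9 times the aged mean and 0.961 times the young mean. The log2 change on the log2(FPKM + 1) scale, which understates changes of low genes, was 1.64 ± 0.18 (SE of the limma fit) for NMN against aged and -1.72 ± 0.18 for aged against young. NMN and young libraries differed by -0.07, with a 95% interval from -0.48 to 0.33. The longest annotated coding transcript has 6590 nt, and if all reads came from it, the aged values stood for 24.2, 25.9 and 32.3 reads, beside 294.7 to 366.3 in NMN and 270.6 to 434.5 in young libraries. Within each group the highest library was at most 1.39 times the lowest. No other member had such even groups apart from Plek.

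Rbm34 (ENSMUSG00000033931), the nucleolar RNA-binding protein, showed the opposite pattern, with the largest changes of the 6 on the log2(FPKM + 1) scale. By the ratio of aged to NMN means Pls3 was ahead of it, at 21.5 against 17.9. It had 0.49, 0.323 and 0.572 FPKM in NMN replicates 1 to 3, 4.91, 10.6 and 9.28 FPKM in aged replicates 1 to 3, and 0.313, 0.44 and 0.314 FPKM in young replicates 1 to 3. Aged replicate 1 was the lowest of its group and still stood well above all NMN and young libraries, which overlapped each other. The NMN mean of 0.462 ± 0.127 FPKM was 17.9 times lower than the aged mean of 8.28 ± 2.99 FPKM. That aged mean was 23.3 times the young mean of 0.355 ± 0.073 FPKM (SD, n = 3). The log2 change was -2.62 ± 0.23 for NMN against aged and 2.71 ± 0.23 for aged against young, the 8th and 9th largest of all tested genes in these comparisons. NMN and young libraries differed by 0.09 (95% interval -0.43 to 0.61). On its longest coding transcript of 3424 nt the values correspond to at most 32.4 reads in NMN, 291.3 to 593.2 in aged and at most 26.2 in young libraries.

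Pls3 (ENSMUSG00000016382), the actin-bundling plastin 3, followed the same order as Rbm34. Its levels were 0.126, 0 and 0.257 FPKM in NMN replicates 1 to 3, 3.30, 1.49 and 3.46 FPKM in aged replicates 1 to 3, and 0.268, 0.136 and 0.429 FPKM in young replicates 1 to 3. The gene was thus at the edge of detection outside the aged group. In NMN replicate 2, where it was listed at 0, 3 reads on the longest coding transcript of 3242 nt would have given 0.0495 FPKM, a limit that covers counting error only. Means were 0.128 ± 0.128 FPKM in NMN, 2.75 ± 1.09 in aged and 0.278 ± 0.147 in young libraries (SD, n = 3), which put aged 21.5 times above NMN and 9.90 times above young. The log2 change was -1.70 ± 0.26 for NMN against aged and 1.51 ± 0.26 for aged against young. NMN differed from young by -0.19 (95% interval -0.78 to 0.40). Aged replicate 2, the library with cumulus markers, was the lowest of the aged group here. Without it the aged mean was 3.38 FPKM, 26.4 times that of NMN.

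Bst2 (ENSMUSG00000046718), the interferon-induced tetherin, was the most abundant of the 6 genes in NMN and in young libraries, and its NMN libraries spread widely. It was at 35.03, 13.8 and 40.6 FPKM in NMN replicates 1 to 3, at 3.26, 5.92 and 6.65 FPKM in aged replicates 1 to 3, and at 18.3, 14.96 and 18.2 FPKM in young replicates 1 to 3. NMN replicate 2 lay below all 3 young libraries and the other NMN replicates lay above them, so these groups overlapped, while aged was below both. Means were 29.8 ± 14.1 FPKM in NMN, 5.28 ± 1.78 in aged and 17.2 ± 1.92 in young libraries (SD, n = 3). NMN was 5.65 times the aged mean, and aged was 3.26 times below young. The log2 change was 2.19 ± 0.36 for NMN against aged and -1.60 ± 0.36 for aged against young. NMN differed from young by 0.59, with a 95% interval from -0.20 to 1.38. Without NMN replicate 2 the change against aged was 2.63 and that against young 1.03. The coding transcript is short (792 nt), and the values correspond to 204.4 to 532.1 reads in NMN, 44.7 to 87.7 in aged and 206.1 to 278.0 in young libraries.

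Nptx2 (ENSMUSG00000059991), the secreted neuronal pentraxin, was ordered NMN over young over aged with no overlap between any of the 3 groups. It had 6.99, 6.88 and 5.94 FPKM in NMN replicates 1 to 3, 0.91, 1.11 and 1.87 FPKM in aged replicates 1 to 3, and 3.61, 2.97 and 5.02 FPKM in young replicates 1 to 3. The lowest NMN library and the highest young library were close, at 5.94 and 5.02 FPKM. Means were 6.60 ± 0.58 FPKM in NMN, 1.30 ± 0.51 in aged and 3.87 ± 1.05 in young libraries (SD, n = 3). NMN was 5.08 times the aged mean and 1.71 times the young mean. The log2 change was 1.72 ± 0.23 for NMN against aged and -1.10 ± 0.23 for aged against young. NMN differed from young by 0.62 (95% interval 0.12 to 1.12). Nptx2 has 1 annotated transcript, of 2536 nt, so reads can be read off directly, at 297.9, 326.0 and 249.3 in NMN, 40.0, 46.0 and 79.0 in aged, and 153.0, 131.0 and 245.0 in young replicates 1 to 3.

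Plek (ENSMUSG00000020120), the protein kinase C substrate pleckstrin, was lower in NMN libraries than in both other groups, which lay close to each other. It was at 0.861, 1.17 and 1.09 FPKM in NMN replicates 1 to 3, at 5.61, 6.68 and 5.42 FPKM in aged replicates 1 to 3, and at 4.31, 4.32 and 4.61 FPKM in young replicates 1 to 3. No aged library reached down to a young one, and the NMN libraries lay far below both. Means were 1.04 ± 0.16 FPKM in NMN, 5.90 ± 0.68 in aged and 4.41 ± 0.17 in young libraries (SD, n = 3). The aged mean was 1.34 times the young mean, whereas NMN was 5.67 times lower than aged and 4.24 times lower than young. The log2 change was -1.77 ± 0.17 for NMN against aged and -1.44 (95% interval -1.81 to -1.07) for NMN against young. For aged against young it was 0.33 (95% interval -0.04 to 0.70). The gene overlaps Cnrip1 on the other strand, which was at a mean of 0.0162 FPKM. Plek has 3 annotated coding transcripts, of 353 to 4101 nt, so its reads are uncertain. On the longest, the values correspond to 59.4 to 89.6 reads in NMN, 370.0 to 446.1 in aged and 295.3 to 363.8 in young libraries. On the shortest, they correspond to 5.11 to 7.71 reads in NMN, 31.9 to 38.4 in aged and 25.4 to 31.3 in young libraries.

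**Figure D2:**
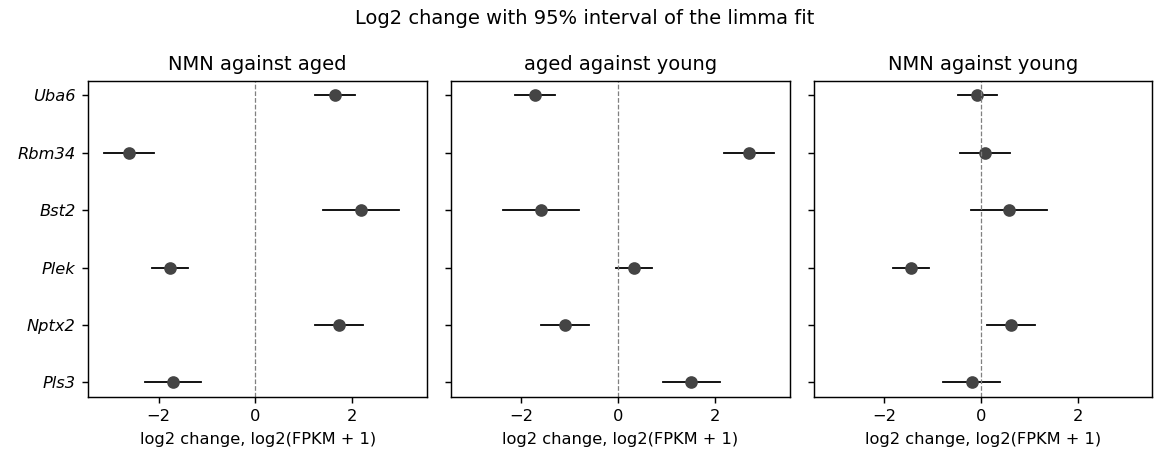
Log2 change on the log2(FPKM + 1) scale (horizontal axis) of each gene in the 3 comparisons; points are estimates and lines are 95% intervals of the limma fit to all 9 libraries. For NMN against young, the intervals of Plek (-1.81 to -1.07) and Nptx2 (0.12 to 1.12) leave out 0 and those of Uba6, Rbm34, Bst2 and Pls3 include it. The genes were chosen on these libraries, so the intervals are a description and not a test.

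Set side by side, the 6 genes differ in where the NMN mean lay on a scale that puts the aged mean at 0% and the young mean at 100%. Uba6 was at 95.8%, Rbm34 at 98.7% and Pls3 at 106%, so these 3 lay close to the young mean on this scale. The NMN mean of Pls3 was still 0.46 times its young mean (0.128 against 0.278 FPKM). Bst2 (206%), Nptx2 (207%) and Plek (326%) lay further beyond 100%. For Bst2, NMN replicate 2 (13.8 FPKM) lay below all 3 young libraries. The interval of its log2 change in NMN against young included 0 (-0.20 to 1.38). The percentage of Plek rests on the gap between aged and young means, and the interval of that log2 change included 0 (-0.04 to 0.70). The groups did not overlap for any of the 6 genes in NMN against aged, where 15.6% of tested genes were free of overlap, nor in aged against young, where 23.8% were. In NMN against young, 2 of the 6 (Plek and Nptx2) were free of overlap, against 16.6% of tested genes. By limma, with p-values adjusted over all tested genes, 20 genes (0.218%) were called in NMN against aged, and all 6 were among them. In aged against young 199 genes (2.17%) were called, among them Uba6, Rbm34, Nptx2 and Pls3. In NMN against young 3 genes (0.0327%) were called, among them Plek, and 1 with the replicate number as a block. Opposite calls in NMN against aged and aged against young were made for 14 genes (0.153%), 4 of them members. The comparisons share libraries and the genes were selected on them, so nothing is read from these counts. Without 1 library, from 5 (aged replicate 3) to 28 genes (aged replicate 2) were called in NMN against aged, and from 28 (young replicate 2) to 208 (aged replicate 2) in aged against young. The first count was also below 20 by more than 1.5 times without aged replicate 1 (8) or NMN replicate 1 (11), and the second below 199 without young replicate 1 (41), young replicate 3 (29), aged replicate 3 (30) or NMN replicate 3 (103). The count of 3 in NMN against young was 6 without NMN replicate 2, 13 without NMN replicate 3, 14 without aged replicate 2 and 1 without any other library.

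Levels also shifted in rank within the transcriptome. Uba6 lay above 73.5% of all genes in the table by its NMN mean, above 45.0% by its aged mean and above 74.3% by its young mean. For Rbm34 these shares were 53.5% in NMN, 83.6% in aged and 51.2% in young, and for Pls3 39.2%, 72.4% and 48.4% in the same order of groups. Bst2 was at 93.3% in NMN and 79.1% in aged oocytes. Bst2 thus ranked high in these groups, while Rbm34 and Pls3 were of middling rank outside the aged group. Aged replicate 2 set none of these patterns alone. Without it the ratio of NMN to aged means was 11.7 for Uba6, 6.02 for Bst2 and 4.75 for Nptx2, and that of aged to NMN means was 15.4 for Rbm34 and 5.30 for Plek.

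Across the 9 libraries, log2(FPKM + 1) of Uba6 and Rbm34 correlated at Pearson's r = -0.966, Uba6 and Pls3 at -0.914 and Rbm34 and Pls3 at 0.893. Plek was least like the rest, with r of -0.597 to Uba6 and 0.606 to Rbm34. The 9 points share 3 groups that the choice of genes had set apart, so these values describe the pattern only. For each gene the 3 tested genes with the most similar profile were found in the same way. Uba6 was most like Vamp3, a SNARE of vesicle fusion (r = 0.978), Maf1, a repressor of RNA polymerase III (0.975), and the olfactory receptor gene Olfr976 (0.973). Vamp3 was at 30.9 to 37.6 FPKM in NMN, 7.13 to 9.16 in aged and 24.8 to 29.6 in young libraries. Rbm34 was most like Mis18a, a centromere factor (0.968), Cyp4f39 (0.964) and Etfa, a mitochondrial electron carrier (0.960), the last of which changed little (means of 120 FPKM in NMN, 172 in aged and 114 in young libraries).

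Pls3 was most like 2 predicted genes, Gm13089 (r = 0.989) and Gm13103 (0.973), and Hsd17b7 (0.964). Gm13089 was at 0.12 to 0.20 FPKM in NMN, 2.92 to 7.83 in aged and 0.20 to 0.35 in young libraries. As in Pls3, aged replicate 2 was the lowest of its group in both predicted genes. Nptx2 was closest to Sec22c (0.983), Plekhg3 (0.972) and Ubr1, a ubiquitin ligase (0.969). Bst2 was closest to the histone deacetylase gene Hdac3 (0.944), Tmem132b (0.937) and Gm5931 (0.925), and Plek to Olfr1349 (0.930), Cela1 (0.906) and, at a lower r, the transcription factor gene Tfap2b. A high r does not mean a change of like size, since Hdac3 had means of 1.18 FPKM in NMN, 0.466 in aged and 0.868 in young libraries.

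**Figure D3:**
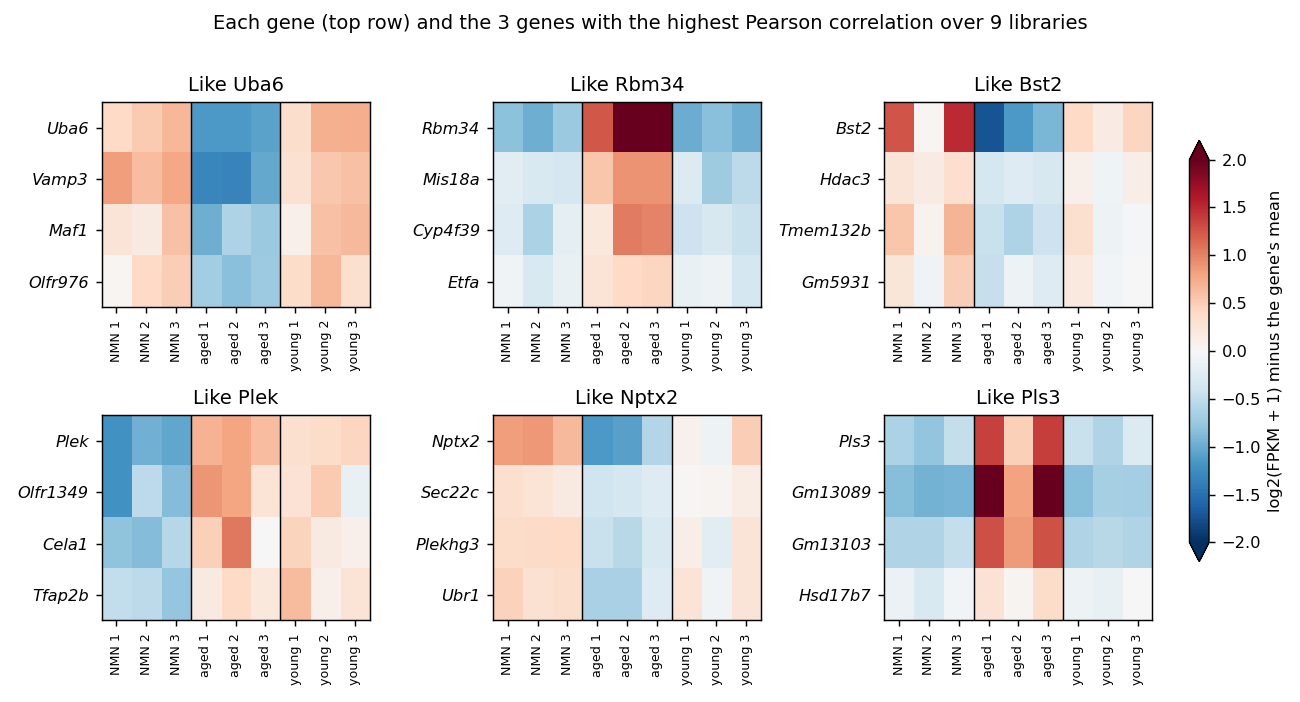
Colour gives log2(FPKM + 1) minus the gene's own mean over the 9 libraries (red above, blue below; colours saturate at the ends of the bar); columns are libraries in the order NMN, aged, young, and each panel has a gene in its top row and the 3 most correlated genes under it. In the panels of Uba6, Rbm34, Bst2, Nptx2 and Pls3 the aged columns lie apart from all others in every row, and in the panel of Plek the NMN columns do so, while the aged columns of its 3 correlated genes overlap the young ones.

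**Figure D4:**
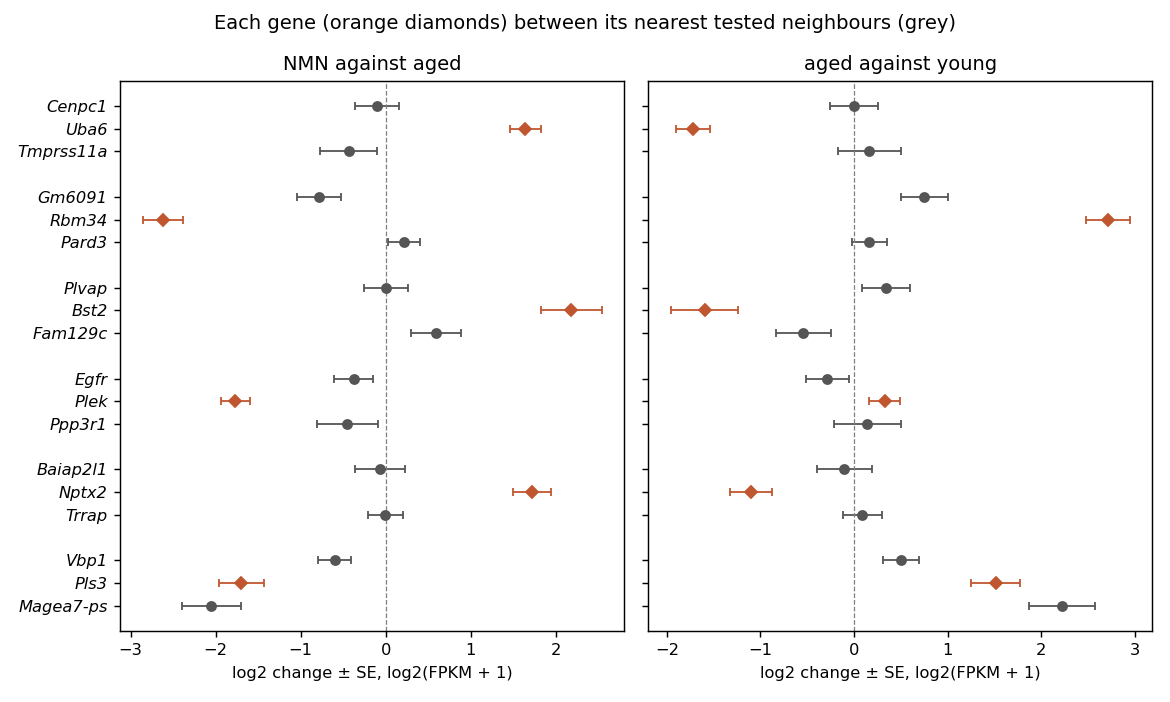
Log2 change ± SE on the log2(FPKM + 1) scale (horizontal axis) of the 6 genes (diamonds) and of the nearest tested gene on each side along the chromosome (circles), for NMN against aged and aged against young. Magea7-ps near Pls3 lies at -2.05 and 2.22, and the other neighbours lie between -0.78 and 0.75.

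Genes next to the 6 along the chromosome were tested in the same fit, as they had no part in the choice. Of 12 nearest tested neighbours, 2 for each gene, none was called in NMN against aged (lowest limma adjusted p = 0.0628). In NMN against young none was called either (lowest 0.459). At an unadjusted p under 0.05 there were 3 in NMN against aged, 3 in aged against young and 1 in NMN against young. Of all tested genes, 11.1%, 18.2% and 8.28% had such a p in the same order. In aged against young, 1 of the 12 was called, beside 2.17% of all tested genes. It was the pseudogene Magea7-ps near Pls3, with 12 annotated genes between them. Magea7-ps rose to 5.71, 4.22 and 9.88 FPKM in aged replicates 1 to 3, against 0.125, 0.539 and 1.14 FPKM in young replicates 1 to 3 (log2 change 2.22 ± 0.35, limma adjusted p = 0.0185). In NMN replicates 1 to 3 it was at 1.55, 0.334 and 0.63 FPKM, with a log2 change of -2.05 ± 0.35 against aged and the adjusted p of 0.0628. Without aged replicate 2, the library with cumulus markers, this difference passed the test (log2 change -2.32, limma adjusted p = 0.0343), and under the other alternatives that tested it the adjusted p ran from 0.0625 to 0.240. Without aged replicate 3, young replicate 1 or young replicate 2 the aged call of Magea7-ps was lost (limma adjusted p = 0.0596, 0.0747 and 0.0814). It was also lost with no filter on low values (limma adjusted p = 0.0809). Outside the aged group this gene reached 1 FPKM only in NMN replicate 1 and young replicate 3. Magea7-ps thus passed the filter only through the aged libraries, so its rise there was favoured in advance. Around Uba6, the centromere protein gene Cenpc1 was at 9.50 ± 1.96 FPKM in NMN, 10.2 ± 2.2 in aged and 10.04 ± 2.48 in young libraries (SD, n = 3). Beside Bst2, Plvap was at 3.54 ± 1.29 FPKM in NMN, 3.49 ± 1.30 in aged and 2.44 ± 0.58 in young libraries. Also without a call were Tmprss11a, Gm6091, Pard3, Fam129c, Egfr, Ppp3r1, Baiap2l1, Trrap and Vbp1. Their log2 changes ran from -0.78 to 0.59 in NMN against aged and from -0.54 to 0.75 in aged against young. Of these, Gm6091 beside Rbm34 and Vbp1 beside Pls3 had all aged libraries above the 6 others, as Magea7-ps did. This held for 3.76% of all tested genes. Gm6091 was at 107.0 to 148.9 FPKM in aged, 48.3 to 106.7 in NMN and 64.5 to 78.7 in young libraries. Vbp1 was at 8.31 to 8.87 FPKM in aged, 5.05 to 6.07 in NMN and 5.02 to 7.255 in young libraries. For the remaining neighbours the aged libraries overlapped NMN or young ones, or both.

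The relatives in sequence that were tested, Uba1, Pls1 and Rbm28, were not called in any comparison. For Bst2, Plek and Nptx2 no relative was tested. Uba1, the main ubiquitin-activating enzyme, was at 10.5 ± 1.49 FPKM in NMN, 7.93 ± 0.42 in aged and 9.05 ± 1.60 in young libraries (SD, n = 3; limma adjusted p of 0.524 for NMN against aged and 0.649 for aged against young). Uba1 was therefore above Uba6 per length in all 3 groups, and in the aged group it was nearly all of their joint level. Pls1, plastin 1, was at 78.2 ± 15.5 FPKM in NMN, 97.8 ± 10.3 in aged and 104 ± 7.98 in young libraries (limma adjusted p from 0.536 to 0.796), far above Pls3 in FPKM everywhere. Lcp1, the leukocyte plastin, stayed at 0.92 FPKM or below and was not tested. Rbm28, another nucleolar RNA-binding protein, was at 29.4 ± 6.50, 23.7 ± 4.52 and 23.7 ± 1.08 FPKM in NMN, aged and young libraries (limma adjusted p from 0.616 to 0.938). Nptxr was listed at 0 in 8 of 9 libraries. No gene of the deposited table mapped to the symbols Uba7, Plek2 or Nptx1, so these were not analysed.

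**Figure D5:**
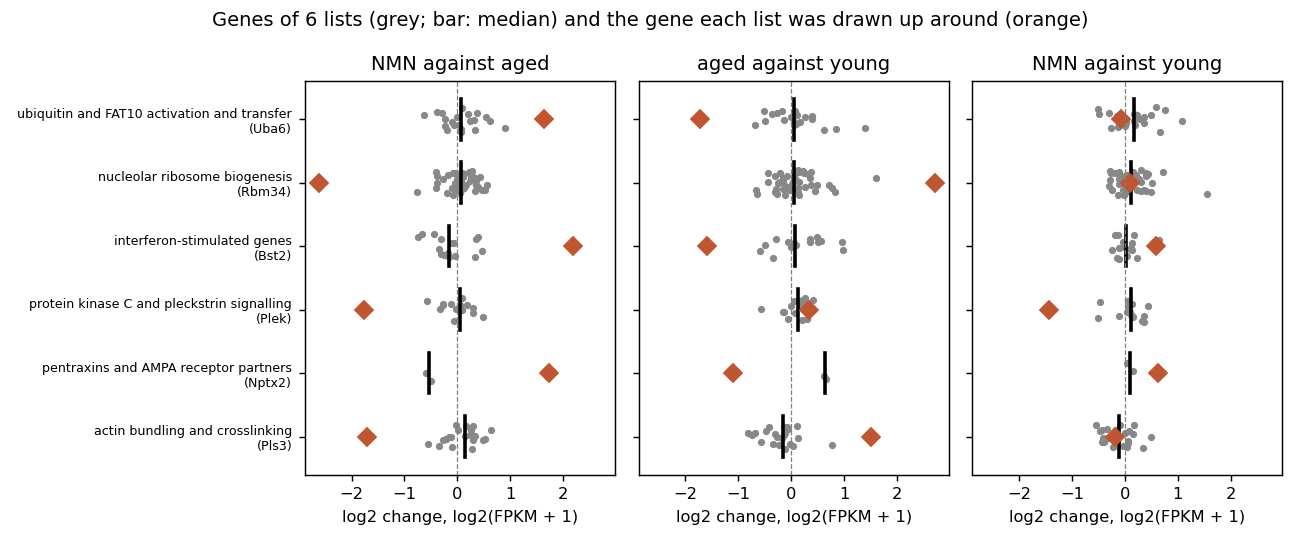
Log2 change on the log2(FPKM + 1) scale (horizontal axis) of the tested genes of 6 lists (grey points, black bars at the medians) and of the gene each list was drawn up around (diamonds), in the 3 comparisons. The diamonds for NMN against aged lie outside the grey points of their list, whose medians run from -0.54 (2 genes) to 0.15. The 6 genes were chosen on this difference and the listed genes were not, so this placing was favoured in advance.

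Lists of genes from the pathway or family of each of the 6, not all of them its partners, were drawn up without the members. Of 229 listed genes 121 were tested, and 0 were called in NMN against aged by limma. At an unadjusted p under 0.05 there were 14 of them (11.6%), beside 11.1% of all tested genes. The same share was 18.2% of all tested genes in aged against young and 8.28% in NMN against young, where 23 (19%) and 9 (7.44%) of the listed genes had it. In aged against young 2 of the 121 (1.65%) were called, against 2.17% of all genes. In NMN against young 1 (0.826%) was called, against 0.0327%. The calls were made for Ube2c and Ddx55, and both genes were higher in the first-named group. The median log2 change over the 121 genes was 0.025 in NMN against aged, 0.041 in aged against young and 0.061 in NMN against young, beside 0.00, -0.02 and 0.01 over all tested genes.

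The list around Uba6 held ubiquitin, activating enzymes, conjugating enzymes and ligases, of which 21 of 28 were tested. None was called in NMN against aged (median 0.065, lowest limma adjusted p = 0.124) or in NMN against young (median 0.16, lowest 0.306), with 3 genes at an unadjusted p under 0.05 in each. In aged against young 1 rose, Ube2c, the conjugating enzyme of the anaphase-promoting complex, with 68.1, 108.9 and 78.1 FPKM in aged replicates 1 to 3, against 34.2, 33.1 and 25.3 FPKM in young replicates 1 to 3 (log2 change 1.39 ± 0.26, limma adjusted p = 0.0293). Its call was lost without young replicate 1, 2 or 3, aged replicate 3 or NMN replicate 3 (limma adjusted p from 0.0502 to 0.130). The call of Ube2c was also lost with no filter on low values (limma adjusted p = 0.104) and with the replicate block (0.069). Ubb and Ube2d3, the most abundant of the list, were at 176 ± 37.3 and 158 ± 29.8 FPKM in NMN libraries and had no call. The enzymes that take over ubiquitin from Uba6 were looked at for their role. Ube2z, its dedicated conjugating enzyme, was at 13.9, 10.1 and 7.55 FPKM in NMN, 3.73, 13.6 and 4.42 in aged and 12.8, 4.95 and 4.74 in young replicates 1 to 3, with overlapping groups. Among the ligases, Ubr1 was at 2.24 to 2.74 FPKM in NMN, 0.66 to 1.20 in aged and 1.48 to 2.21 in young libraries (log2 change 0.89 in NMN against aged and -0.68 in aged against young, limma adjusted p = 0.124 and 0.107). Its aged libraries overlapped neither group, and the difference did not pass the test. Ubr2, Ubr3 and Birc6 had limma adjusted p from 0.604 to 0.988.

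Of 54 nucleolar genes of ribosome assembly listed around Rbm34, 45 were tested and none was called in NMN against aged (median 0.07, lowest limma adjusted p = 0.266, 4 genes at an unadjusted p under 0.05). The RNA helicase gene Ddx55 rose in both other comparisons. It was at 6.99, 8.54 and 5.81 FPKM in NMN replicates 1 to 3, at 7.33, 6.51 and 7.72 FPKM in aged replicates 1 to 3 and at 1.76, 1.76 and 1.5 FPKM in young replicates 1 to 3. NMN and aged libraries thus lay together, well above the young ones. The log2 change was 1.60 ± 0.20 for aged against young (limma adjusted p = 0.00548, and up to 0.0404 when any 1 library was left out). For NMN against young it was 1.56 ± 0.20 (limma adjusted p = 0.0303, but 0.153 with the replicate block and 0.158 with no filter on low values). This call was also lost without any of 7 of the 9 libraries, with an adjusted p up to 0.282 without young replicate 3. Mphosph10 and Npm1, the most abundant of the list, were at 190 ± 24.7 and 139 ± 17.0 FPKM in NMN, 186 ± 22.7 and 141 ± 67.6 in aged, and had no call.

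The interferon list around Bst2 gave no call. Of its 55 genes 16 were tested, and the lowest limma adjusted p was 0.387 in NMN against aged, 0.0715 in aged against young and 0.487 in NMN against young. The medians were -0.16, 0.07 and 0.01 in the same order of comparisons, so the list had a negative median where the change of Bst2 was positive. At an unadjusted p under 0.05 there were 3, 5 and 1 of 16. Oas1d and Oas1e, members of the oligoadenylate synthetase family, were at 2530 ± 100 and 1222 ± 178 FPKM in NMN, 2713 ± 481 and 1299 ± 424 in aged, and 2482 ± 60.2 and 1282 ± 125 in young libraries (SD, n = 3). They were far more abundant than Bst2 and showed no call (limma adjusted p from 0.841 to 0.978). Both were named as the most abundant of the list, and whether they respond to interferon in oocytes was not tested. The list mixes genes induced by interferon with parts of its pathway such as Jak1 and Tyk2. Whether interferon acted was not tested.

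No gene of the lists around Plek, Pls3 and Nptx2 was called in any comparison. Of 38 genes of protein kinase C and phosphoinositide signalling 15 were tested, with a median of 0.05 in NMN against aged, 0.14 in aged against young and 0.11 in NMN against young (lowest limma adjusted p = 0.262), and 1 gene in each comparison at an unadjusted p under 0.05. Itpr2, a receptor of the messenger IP3, was at 18.2 ± 5.57 FPKM in NMN, 23.9 ± 11.6 in aged and 18.8 ± 3.73 in young libraries. Rack1, an anchor of activated protein kinase C, was at 20.5 ± 5.85 FPKM in NMN, 19.0 ± 1.86 in aged and 15.1 ± 2.39 in young libraries. Of 41 actin crosslinkers and partners 22 were tested, with medians of 0.15, -0.15 and -0.12 in the same order (lowest adjusted p = 0.0941), and 2, 3 and 2 genes at an unadjusted p under 0.05. Rdx, radixin, was at 935 ± 51.0 FPKM in NMN, 992 ± 30.3 in aged and 906 ± 22.7 in young libraries, the most abundant of that list. The list around Nptx2 kept 2 of 13 genes, with 1, 2 and 0 of them at an unadjusted p under 0.05. The protease gene Adam17 was at 17.0 ± 2.52 FPKM in NMN, 25.5 ± 1.53 in aged and 16.0 ± 2.53 in young libraries. Gria4, an AMPA receptor subunit, was at 1.41 ± 0.03, 2.47 ± 1.03 and 1.16 ± 0.55 FPKM in NMN, aged and young libraries (limma adjusted p from 0.139 to 0.959 for both).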

How the data were processed

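The authors deposited 1 table with the level of 22526 genes in 9 libraries. Its deposited values are FPKM, although its name calls them raw counts: most are not whole numbers, and a library adds up to 300369 to 329359. Per the labels' protocols, cDNA was made by Smart-seq2 from oligo(dT) primers and sequenced by the DNBseq route. Per the submitters' processing notes, Bowtie2 2.2.5, RSEM and mm9 were used, and the gene annotation is not given in the sources used here. GENCODE M21, on a later build, served for symbols (99.83% of genes), transcript lengths and gene order. Depth was estimated from 2659 genes with 1 transcript over 1500 nt, where 96.61 to 97.76% of values below 20 reads were whole within 0.02 reads. No read counts were recovered for genes with several transcripts, so reads behind a gene's level are approximate.

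Library factors were trimmed means of log ratios, leaving out 30% at each end by ratio and 5% by level, and FPKM were divided by them. The filter asked for 1 FPKM or more in 3 libraries and left 9168 genes. Then limma 3.58.1 (R 4.3.3; variance trend, robust) was fitted across all genes to log2(FPKM + 1) with 1 mean per group and no covariate. P-values were adjusted by Benjamini-Hochberg over all tested genes and called under 0.05. On simulated data for NMN against aged with 200 changed genes among 8906, 35% of changes of 1 and 80% of changes of 2 (log2) were recovered, and 4.96% of calls were false. Groups and replicate numbers came from sample titles. Whether a shared replicate number pairs libraries was judged by how such libraries deviated together, and a pairing was accepted when each of 3 correlations passed 0.1. Between NMN and young they were 0.497, 0.119 and 0.143, so these met the rule. Libraries with unlike numbers were not compared in this way, so the rule cannot show a true pairing. The main fit used no pairing, and a replicate block was tried as an alternative. Between aged and young they were -0.338, -0.266 and 0.314. Between NMN and aged they were -0.372, -0.357 and 0.203, and neither of these sets met the rule. No 2 libraries held the same values (r of 0.916 to 0.985 within groups). The genes, lists and tests were chosen with earlier results of these data known. Named besides the 6 genes were the 3 most correlated genes of each, relatives, nearest tested neighbours and, per list, up to 4 called genes or the 2 most abundant. The partners of Uba6 were added for their role after values were seen. Other pseudocounts, filters, scalings, fits and left-out libraries were tried.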

Additional observations from a re-analysis of the deposited data

How the results depend on the processing

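The log2 changes of the 6 genes kept their sign under every alternative that tested them, but a pseudocount of 0.1 made 11 of 18 larger by more than the replicate spread, up to 4.12 for Rbm34 in aged against young and -3.76 for Pls3 in NMN against aged. At a minimum of 10 FPKM only Bst2 was tested, and without an aged library Rbm34 and Pls3 were not. Counts of called genes were less stable. In NMN against aged (20) they were 13 with a pseudocount of 0.1, 9 with no filter, 4 at a minimum of 10 FPKM and 7 with only these groups fitted, and 5 to 28 without 1 library. In aged against young (199) they were 27 with no filter, 103 at the minimum of 10 FPKM, 130 with only these groups, 61 with the replicate block and 28 to 208 without 1 library. In NMN against young (3) they were 5, 1, 1 and 16 for the pseudocount, no filter, the higher minimum and only these groups, 1 with the replicate block, and 1 to 14 without 1 library. Calls among listed genes in aged against young (2) were 1 with no filter, at the higher minimum and with the replicate block, and 1 to 2 without 1 library. In NMN against young (1) they were 0 under the same 3 settings, and 0 to 1 without 1 library. In NMN against aged they were 0 throughout. For aged comparisons the replicate numbers did not meet the pairing rule. The cause of these shifts was not tested. Depth limits Pls3, Rbm34 and Uba6 where they are low, since 3 reads are worth 0.0779 to 0.0922 FPKM on a transcript of 2 kb. For Plek in NMN libraries, the limit depends on which of its transcripts the reads came from.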

Other observations

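The 34 tested genes whose aged libraries lay apart from all others by at least 4-fold in mean, Uba6, Rbm34 and Pls3 among them, include others that were chosen here after their values were seen. Arntl2, a circadian transcription factor, averaged 4.13 FPKM in NMN, 0.17 in aged and 4.26 in young libraries, much as Uba6 did. Cavin1, a coat protein of caveolae, averaged 1.61 FPKM in NMN, 0.28 in aged and 1.74 in young libraries. On the high side, Chrdl1, a BMP antagonist, averaged 0.72 FPKM in NMN, 3.97 in aged and 0.94 in young libraries, and Pcp4l1 averaged 3.70, 31.4 and 1.99 FPKM in the same order of groups. The filter of 1 FPKM in at least 3 libraries favours such differences in genes whose mean is below 1 FPKM in a group. That applies to Arntl2 and Cavin1 in aged libraries and to Chrdl1 in NMN and young libraries.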
